A study of Mus musculus with 16 samples.

Results

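Neurons that received apoE3 lipoproteins were compared directly with neurons that received apoE2 lipoproteins, gene by gene. The members are the 4 apoE3 and the 4 apoE2 libraries of a series of 16, taken by their labels, and libraries with the same replicate number (1 to 4) form a pair. Primary hippocampal neurons came from newborn CD1 mouse pups and were treated with AraC, which removes dividing cells. At 10 and 13 days in vitro (DIV) they received concentrated medium conditioned by immortalized astrocytes of human *APOE* targeted replacement mice, homozygous for ε2 or for ε3, and RNA was taken at 17 DIV. The apoE protein level was balanced between isoforms with medium of *Apoe*-/- astrocytes, which alone served the control, and an apoE4 group was treated in the same way. The astrocytes had been kept with 25-hydroxycholesterol, and every group received astrocyte medium. Each astrocyte source is an immortalized line, so the isoform and the line that secretes it cannot be told apart, and the neuronal cultures still hold some glia. ApoE is the main lipid carrier that astrocytes secrete, and neurons take up its particles through surface receptors. The human isoforms differ at only a pair of residues.

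The 8 libraries held 14087723 to 34248172 reads on genes. Pair 4 was the least alike in library quality. The share of reads that were on no gene was 38.4% with apoE2 replicate 4 and 67.1% with apoE3 replicate 4, and the share taken by *Lars2* was 0.690% and 7.64%. The SD across genes of the log2 difference was 0.701 in pair 4 and between 0.394 and 0.534 in the other 3 pairs. Defining markers of neurons were abundant in all 8 libraries. The 12 neuron markers summed to between 3693 and 8005 CPM (reads per 1000000 reads on genes, after scaling of the libraries), against 1358 to 6869 CPM for the 11 astrocyte markers tested and 17.8 to 103 CPM for the 14 microglia and macrophage markers.

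Of 17038 genes tested, 122 were higher with apoE3 than with apoE2 (0.716% of those tested) and 102 were lower (0.599%), 224 in all (1.31%), at an adjusted p under 0.05 by edgeR's quasi-likelihood test with the replicate number as a block. Those genes are called higher or lower below. All 224 had the same sign in 4 of 4 pairs, as did 23.6% of the genes tested. Without the replicate block the same test called 0 genes (smallest adjusted p = 0.930, 389 genes at an unadjusted p under 0.05 against 2713 with the block), and DESeq2 called 9. Each call therefore rests on differences within pairs, whereas the libraries of a group differed widely from each other. The differences were modest in size. The median log2 fold change was 0.80 for the genes called higher and −0.59 for those called lower, and 41 and 20 of them changed at least 2-fold. At the thresholds of the study, a 2-fold change and an unadjusted p under 0.05, 167 genes were higher (0.980%) and 119 lower (0.698%). The p here is that of the paired edgeR fit and not of the study's own gene-by-gene test, and without the block the same thresholds gave 71 and 46. For 13431 genes (78.8%) the 95% interval of the fold change lay wholly within 2-fold in either direction.

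**Figure D1:**
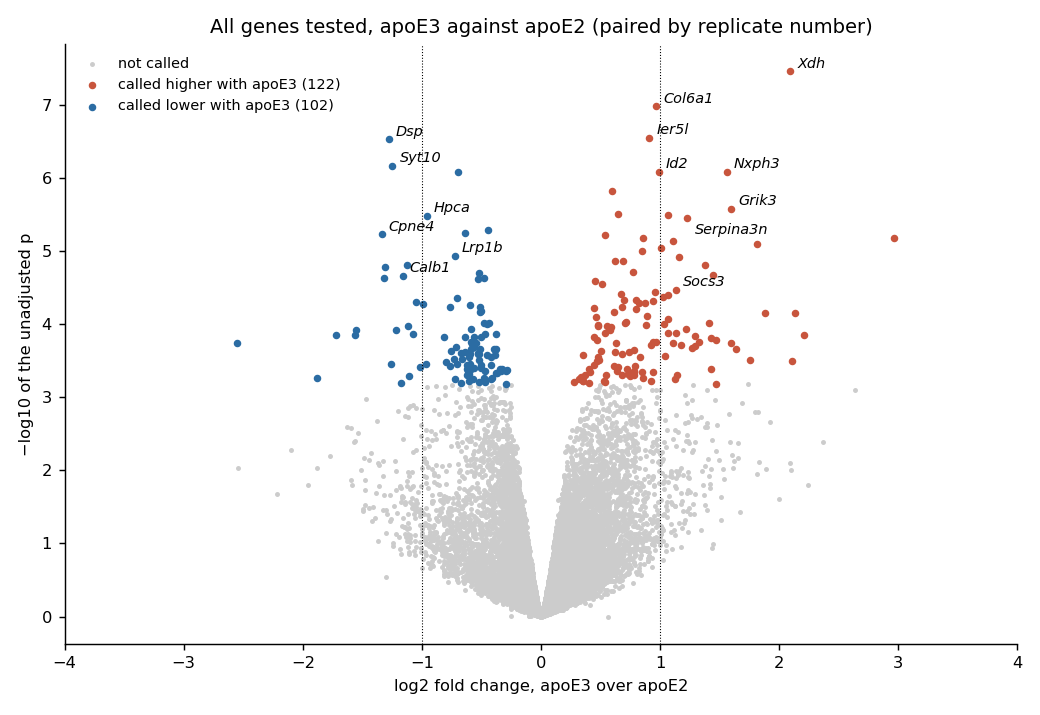
Each point is one of the 17038 genes tested. The horizontal axis gives the log2 fold change of apoE3 over apoE2, the vertical axis −log10 of the unadjusted p of the paired fit, and the dotted lines mark a 2-fold change. The 122 genes called higher are red and the 102 called lower are blue, and most of the coloured points lie between the dotted lines.

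The count depended on single libraries. It was 33 higher and 23 lower without apoE2 replicate 2, 45 and 25 without apoE2 replicate 4, 31 and 18 without apoE3 replicate 1, and 56 and 31 without apoE3 replicate 3. The number of lower genes was 55 without apoE2 replicate 3, 33 without apoE3 replicate 4, 67 without apoE4 replicate 3 and 65 without control replicate 3. Without both libraries of number 4 the counts were 77 and 40, without number 1 they were 19 and 10, without number 2 they were 24 and 18, and without number 3 they were 11 and 4. When only the 8 libraries compared were fitted, 15 genes were higher and 5 lower, and all 20 are among the 224. In 23 of the higher genes and 12 of the lower ones the call was kept in each of the 16 fits that left out 1 library. Of these, *Xdh*, *Nxph3*, *Serpina3n*, *Sbno2*, *Col6a1*, *Ier5l*, *Dsp* and *Syt10* were also called in each of the 4 fits that left out a replicate number and in the fit of the 8 libraries.

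*Xdh* (chr17:73883895-73950196, GRCm38), the xanthine dehydrogenase that forms urate in purine breakdown, had the smallest p. Its levels with apoE2 were 7.33, 1.83, 9.38 and 7.93 CPM in replicates 1 to 4, and with apoE3 they were 20.7, 11.97, 52.9 and 26.5 CPM. All 4 apoE3 values lay above all 4 apoE2 values. The level was 4.26-fold higher, a log2 fold change of 2.09 ± 0.20 (standard error; adjusted p = 5.9e-04 by edgeR). The group means were 5.77 ± 2.95 CPM in the control and 11.4 ± 6.71 CPM with apoE4 (SD, n = 4 each), so apoE2 was near the control level and apoE3 stood highest.

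*Nxph3* (chr11:95509845-95514570) encodes a neurexophilin, a secreted ligand of the presynaptic neurexins, and *Grik3* (chr4:125490700-125714173) a kainate-type glutamate receptor subunit. *Nxph3* had 11.2, 4.78, 18.2 and 15.9 CPM with apoE2 against 28.5, 20.1, 61.0 and 32.1 CPM with apoE3, a log2 fold change of 1.56 (adjusted p = 0.0018 by edgeR). *Grik3* had 7.82, 11.1, 5.90 and 16.2 CPM against 36.6, 30.7, 15.7 and 42.7 CPM, a log2 fold change of 1.60 (adjusted p = 0.0043 by edgeR). In both genes the control mean lay between the isoforms, with 22.5 ± 11.04 CPM for *Nxph3* and 19.3 ± 12.7 CPM for *Grik3* (SD, n = 4). The groups did not overlap in *Nxph3*, and in *Grik3* the lowest apoE3 library, replicate 3, lay just below the highest apoE2 library, replicate 4.

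*Serpina3n* (chr12:104406729-104414329), an acute-phase protease inhibitor made in quantity by reactive astrocytes, had 309, 198, 327 and 437 CPM with apoE2 and 878, 470, 680 and 929 CPM with apoE3. All apoE3 libraries lay above all apoE2 libraries, and the difference was 1.23 ± 0.17 on the log2 scale (standard error; adjusted p = 0.0043 by edgeR). *Sbno2* (chr10:80056992-80105571), a transcriptional co-regulator induced by such cytokines, had 46.1, 25.4, 44.8 and 55.3 CPM against 100, 54.6, 99.3 and 100 CPM. Its log2 fold change of 1.07 (adjusted p = 0.0043 by edgeR) was among the most even across pairs, which ranged from 0.86 to 1.15, although apoE3 replicate 2 lay just below apoE2 replicate 4. *Socs3* (chr11:117966079-117970047), the feedback inhibitor of cytokine signalling through STAT3, had 16.8, 5.69, 10.9 and 23.8 CPM against 36.0, 16.3, 20.6 and 45.9 CPM, and a log2 fold change of 1.13 (adjusted p = 0.014 by edgeR). The *Socs3* groups overlapped, and the call was lost without apoE2 replicate 2 (adjusted p = 0.052) and without apoE3 replicate 1 (adjusted p = 0.050).

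Cytokines of the gp130 family, such as LIF, signal through the kinase JAK and the transcription factor STAT3. Of the 22 tested genes in the list of gp130 cytokines, STAT3 and C/EBP factors, 3 rose (13.6%, against 0.716% of all genes tested) and 0 fell. They are *Socs3*, *Stat3* itself and *Il6st*, the gene of the gp130 receptor. *Stat3* had 184, 135, 189 and 239 CPM with apoE2 against 258, 190, 270 and 287 CPM with apoE3, a log2 fold change of 0.44 (adjusted p = 0.026 by edgeR). *Il6st* had a log2 fold change of 0.45 (adjusted p = 0.038 by edgeR), and its call was lost in 10 of the 16 fits without 1 library, as was that of *Stat3* in 5. In the fits without number 1, 2 or 3 none of these 3 genes was called. In the fit of the 8 libraries *Socs3* alone was. The median log2 fold change of the list was 0.44, against 0.0087 over all genes tested, and 0.21 without number 4, where 2 members were called (0.452% of all genes were then higher and 0.235% lower). The cytokine gene *Lif* had 0.60 and its relative's receptor gene *Osmr* 0.48, and neither passed the test, with *Osmr* at 56.7 CPM with apoE2 replicate 4 and 150 CPM with apoE3 replicate 4 but 61.2 and 83.0, 8.67 and 8.77, and 25.1 and 25.5 CPM in the other pairs. *Cebpb* and *Cebpd* had log2 fold changes of 0.43 and 0.49 and did not pass either (adjusted p = 0.32 and 0.18 by edgeR).

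*Serpina3n* belongs to a cluster of near-identical genes on chromosome 12, whose reads can be split between copies by the counting. All 8 *Serpina3* genes and pseudogenes tested in that cluster had a log2 fold change above 0, from 0.37 to 1.496, and 4 were called, *Serpina3n*, *Serpina3i* (1.07) and the annotated pseudogenes *Serpina3h* (0.97) and *Serpina3e-ps* (1.38). Of all genes tested, 0.716% were called higher and 8863 of 17038 lay above 0. Because the copies are near-identical, the 8 are not separate observations. The complement regulator *Serping1* was also called higher, with a log2 fold change of 1.07. This family and this regulator were singled out after their values were seen.

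Because STAT factors bind palindromes of the form TTCNNNGAA, that motif was looked for in RefSeq promoters of GRCm38.p6, 250 bases before to 50 after a start site. The motif reads the same on both strands, so one search covers both, and it was chosen after the values were seen. It was in a window of 6 genes called higher, *Kcnip3*, *Sgms2*, *Txnrd1*, *Socs3*, *Sbno2* (2 of its 3 starts) and *Serpina3i*. Windows of *Socs3*, *Sbno2* (1 of the 2) and *Serpina3i* are printed with that of *Serpina3n*, the most abundant gene of its cluster, which does not hold it. All are written 5′ to 3′ in the direction of the gene, and capitals mark the motif.
Socs3, chr11:117969317-117969616, minus strand: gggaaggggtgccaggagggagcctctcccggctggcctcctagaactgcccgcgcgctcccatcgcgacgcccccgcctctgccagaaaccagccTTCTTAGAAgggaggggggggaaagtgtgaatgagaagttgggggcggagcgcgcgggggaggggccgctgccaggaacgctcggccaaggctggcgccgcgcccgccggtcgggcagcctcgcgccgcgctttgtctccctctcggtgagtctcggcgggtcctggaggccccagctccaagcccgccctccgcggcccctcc
Sbno2, chr10:80101138-80101437, minus strand: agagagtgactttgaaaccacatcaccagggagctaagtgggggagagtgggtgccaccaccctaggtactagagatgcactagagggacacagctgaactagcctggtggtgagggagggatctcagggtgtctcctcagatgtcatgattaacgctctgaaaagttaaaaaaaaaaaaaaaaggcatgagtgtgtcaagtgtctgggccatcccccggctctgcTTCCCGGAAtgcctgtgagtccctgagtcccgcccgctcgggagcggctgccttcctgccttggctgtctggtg
Serpina3i, chr12:104262872-104263171, plus strand: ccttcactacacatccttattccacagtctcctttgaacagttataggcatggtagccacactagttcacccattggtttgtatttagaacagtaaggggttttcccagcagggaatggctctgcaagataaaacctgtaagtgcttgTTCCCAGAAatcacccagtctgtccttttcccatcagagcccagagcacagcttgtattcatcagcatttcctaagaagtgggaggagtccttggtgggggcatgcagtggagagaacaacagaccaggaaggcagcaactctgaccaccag
Serpina3n, chr12:104406458-104406757, plus strand: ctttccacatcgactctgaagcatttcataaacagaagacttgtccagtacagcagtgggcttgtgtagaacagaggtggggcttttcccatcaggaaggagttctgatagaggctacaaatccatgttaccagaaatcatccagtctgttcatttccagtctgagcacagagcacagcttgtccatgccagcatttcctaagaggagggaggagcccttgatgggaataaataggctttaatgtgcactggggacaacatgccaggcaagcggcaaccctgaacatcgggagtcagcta
In *Socs3* the motif began 154 bases before the start site, in *Serpina3i* 102 bases and in the printed window of *Sbno2* 24 bases (26 bases in its other one). Genes called higher did not hold it more often than others. It was in 8 of 125 windows of the 93 genes called higher that had one (6.40%), in 8 of 101 windows of 72 genes called lower (7.92%), in 6.76% of the windows of genes tested and in 8.30% of all 32851 windows. A match is a string of letters and not a measured binding site.

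Other genes of the 12 leading ones called higher were *Fzd7*, a Wnt receptor (log2 fold change 1.11), *Layn*, the hyaluronan receptor layilin (1.16), *Zbtb42*, a zinc finger gene (1.82, at 0.229 to 1.13 CPM with apoE2), *Rasgef1c*, a Ras exchange factor (1.06), *Btbd17* (1.00) and *Vwa5a* (1.02). *Layn* had 11.4, 4.47, 10.2 and 20.3 CPM with apoE2 and 26.9, 10.7, 23.2 and 38.0 CPM with apoE3. *Rasgef1c* differed little in pair 4, with 28.1 and 32.1 CPM, and its call was lost without apoE2 replicate 2, apoE3 replicate 1 or apoE3 replicate 3, while that of *Vwa5a* was lost without apoE2 replicate 2 or apoE3 replicate 1. *Id2*, an inhibitor of helix-loop-helix transcription factors and a BMP target, was even across pairs, with 23.8, 23.0, 30.6 and 26.1 CPM against 47.3, 47.5, 59.0 and 50.7 CPM. The groups did not overlap, and the pair differences of 0.94 to 1.04 gave a log2 fold change of 0.99 ± 0.12 (standard error; adjusted p = 0.0018 by edgeR).

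**Figure D2:**
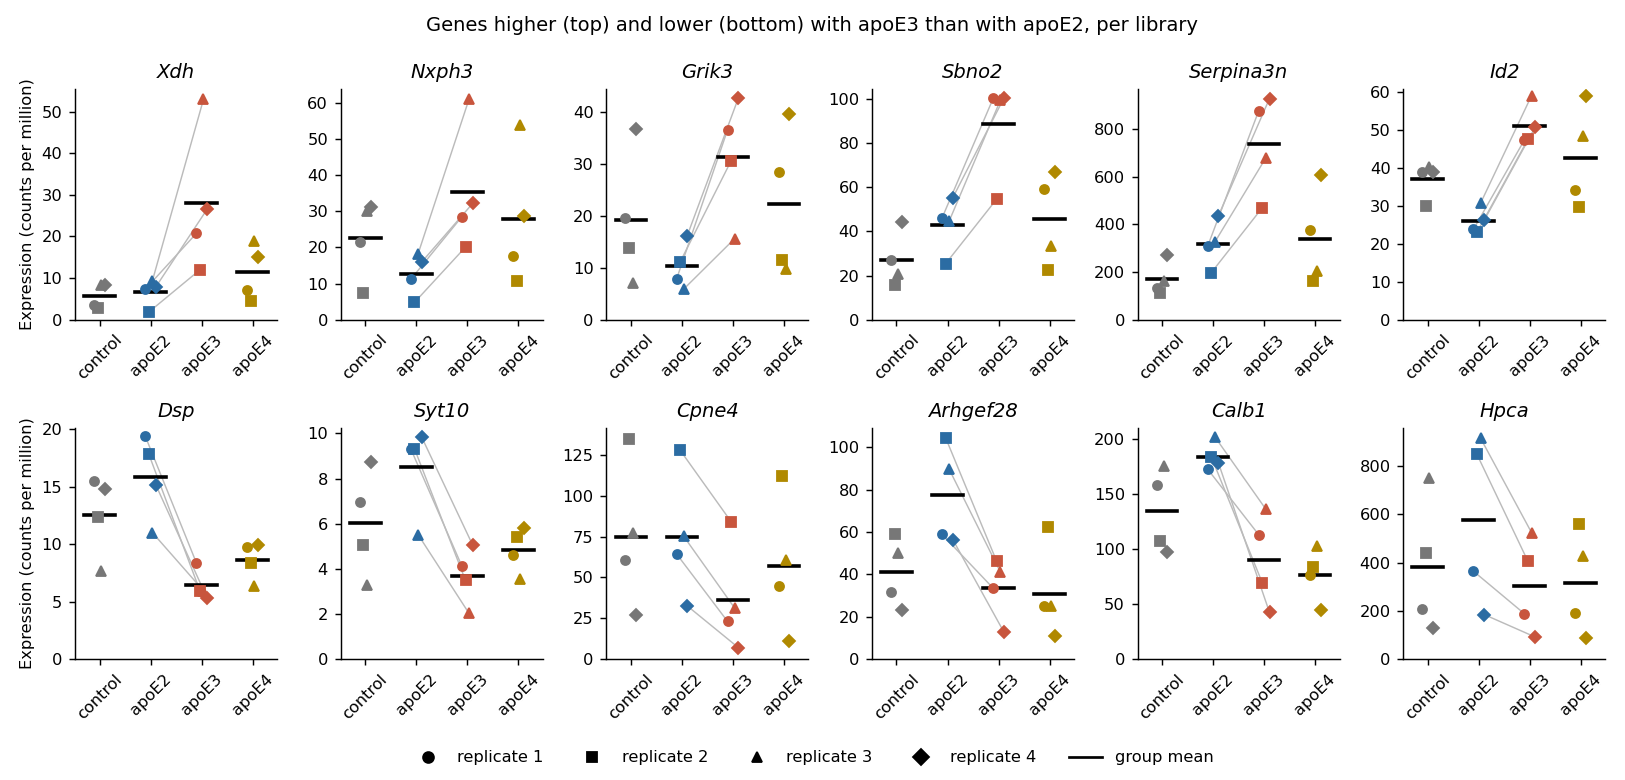
Expression in CPM of 6 genes called higher (top) and 6 called lower (bottom), with each of the 16 libraries as a point, its shape giving the replicate number, and a bar at the group mean. Grey lines join the apoE2 and apoE3 libraries of 1 number, and in each of these genes all 4 lines run in 1 direction.

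The genes called lower were on the whole more abundant, with a median level with apoE2 of 72.2 CPM, against 18.5 CPM for the genes called higher and 14.04 CPM for all tested. *Dsp* (chr13:38151294-38198577), desmoplakin of cell junctions, which in hippocampus marks dentate granule neurons, had 19.4, 17.8, 10.99 and 15.1 CPM with apoE2 and 8.38, 5.95, 5.94 and 5.32 CPM with apoE3. The groups did not overlap, and the level was 2.43-fold lower, a log2 fold change of −1.28 ± 0.15 (standard error; adjusted p = 0.0013 by edgeR). *Syt10*, a calcium sensor of secretory vesicles, had 9.30, 9.32, 5.51 and 9.84 CPM against 4.11, 3.48, 2.02 and 5.05 CPM, a log2 fold change of −1.25 (adjusted p = 0.0018 by edgeR), again with no overlap. In *Dsp* the control mean was 12.6 ± 3.52 CPM and the apoE4 mean 8.59 ± 1.65 CPM, and in *Syt10* they were 6.01 ± 2.36 and 4.83 ± 0.993 CPM (SD, n = 4), so both lay between the isoforms.

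*Calb1*, which encodes the calcium buffer calbindin, had 173, 184, 202 and 178 CPM with apoE2, closely grouped, and 113, 69.1, 136 and 42.4 CPM with apoE3. The groups did not overlap, and the log2 fold change of −1.16 (adjusted p = 0.011 by edgeR) was −0.86 without number 4. *Hpca*, the hippocampal calcium sensor hippocalcin, named after its value was seen, had 364, 849, 916 and 184 CPM against 188, 405, 524 and 91.2 CPM. Its groups overlapped because the pairs lay at different levels, yet each pair fell by a similar amount, from 0.81 to 1.07 on the log2 scale (log2 fold change −0.96, edgeR adjusted p = 0.0043). *Cpne4*, a copine that binds membranes in the presence of calcium, had 64.5, 128, 75.3 and 32.6 CPM against 23.1, 84.2, 31.2 and 7.02 CPM, a log2 fold change of −1.34 (adjusted p = 0.0057 by edgeR). In the fit of the 8 libraries *Hpca* was called, and *Calb1* and *Cpne4* were not (adjusted p = 0.13 and 0.093 by edgeR).

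*Arhgef28*, a guanine nucleotide exchange factor, had 58.8, 104, 89.5 and 56.4 CPM with apoE2 and 33.4, 46.1, 41.1 and 12.7 CPM with apoE3, with no overlap (log2 fold change −1.31, edgeR adjusted p = 0.0090). *Rapgef5*, an exchange factor for Rap, had 135, 231, 172 and 114 CPM against 68.0, 105, 101 and 22.2 CPM, also with no overlap. Its log2 fold change was −1.32 (adjusted p = 0.011 by edgeR), or −0.97 without number 4. In the fit of the 8 libraries neither *Arhgef28* nor *Rapgef5* was called (adjusted p = 0.072 and 0.11 by edgeR). *Srgap2*, a GTPase-activating protein that turns Rac off and shapes dendritic spines, was lower by less, with 146, 167, 178 and 151 CPM against 129, 116, 110 and 108 CPM (log2 fold change −0.48, edgeR adjusted p = 0.023), and was named after its value was seen.

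The other leading genes called lower were *Col28a1*, a collagen (log2 fold change −1.13), *Strip2*, a partner of striatin (−1.05), *Cgn*, cingulin of tight junctions (−1.22), *Plekhd1* (−1.07), *Ankrd31* (−1.56) and *Sostdc1*, a secreted inhibitor of BMP and Wnt signals (−1.72, at 0.205 to 2.11 CPM). All of these but *Strip2* had their highest group mean with apoE2. *Plekhd1* had 5.57, 6.57, 5.21 and 5.82 CPM with apoE2 and 3.27, 2.91, 2.71 and 2.17 CPM with apoE3, beside means of 2.68 ± 0.280 CPM in the control and 1.90 ± 0.787 CPM with apoE4 (SD, n = 4). *Ankrd31* had 6.43 to 15.5 CPM with apoE2 and 1.35 to 7.05 CPM with apoE3, beside 2.62 ± 1.36 and 1.95 ± 0.873 CPM. *Plekhd1* was not called in 7 of the 16 fits without 1 library, *Ankrd31* and *Sostdc1* in 6, *Cgn* in 5, *Strip2* in 2 and *Col28a1* in 1.

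**Figure D3:**
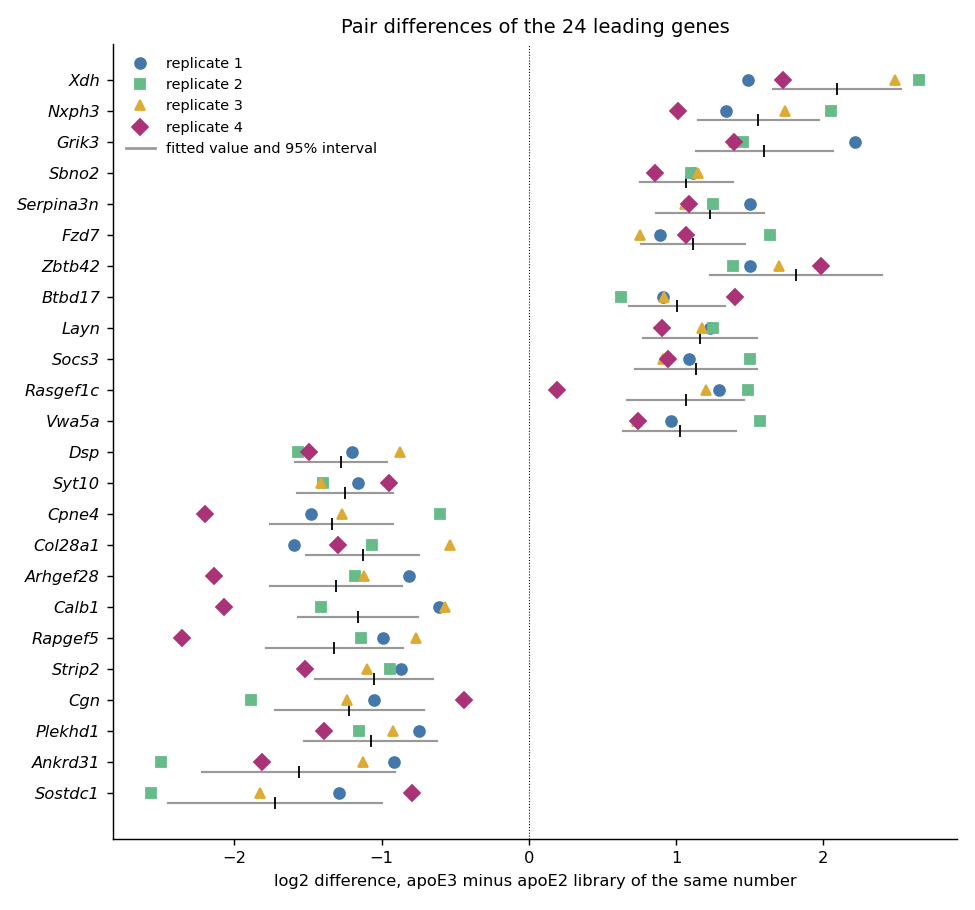
Log2 differences of the 24 leading genes, apoE3 minus apoE2 library of the same number, with one symbol per pair; the grey line is the 95% interval and the tick the fitted log2 fold change. All points of the 12 upper genes lie right of 0 and all points of the 12 lower genes left of it, and pair 4 (diamonds) is the farthest left in *Cpne4*, *Arhgef28*, *Calb1* and *Rapgef5*.

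Over the 224 genes, the 4 apoE3 libraries lay wholly above the 4 apoE2 libraries in 26 genes called higher (of all genes tested, 0.698% did so) and wholly below in 30 genes called lower (0.963% of those tested). The median pair difference of the genes called higher was 0.69, 0.69, 0.68 and 0.96 in pairs 1 to 4, and that of the genes called lower was −0.47, −0.50, −0.52 and −0.84. Of the 224 genes, 209 are protein-coding. The genes called lower had longer transcripts, with a median exon length of 6474 bases against 4709 bases in those called higher and 4097 bases in all genes tested, and a lower median GC content (48.0%, 52.3% and 49.4%). Offsets for GC content and length left 143 genes higher and 133 lower. A gene on the other strand overlaps an exon of 52 of the 224, and since the strand setting of the counting was not stated their reads cannot be told apart. It covers more than 20% of the exon length of *Hopx*, *Ccnd1* and *Cebpb* among the genes named here.

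In 5 lists of synaptic and channel genes, 7 of 205 tested members were called (3.42%, against 1.31% of all genes tested), 1 higher and 6 lower with apoE3. The tally depended on the libraries fitted. Each of the 7 genes kept its sign, which adds no evidence because they were selected on these libraries. Without number 4 the lists held 3 higher and 2 lower calls, and in the fit of the 8 libraries *Grik3* alone. The genes called without number 4 were *Grik3*, the sodium channel gene *Scn7a* (1.495) and the vesicular glutamate transporter gene *Slc17a6* (0.44), which were higher, and *Syndig1* (−0.49) and *Kcnt1*, which were lower. *Scn7a*, *Slc17a6* and *Syndig1*, named after their values were seen, were not called over all pairs (adjusted p = 0.38, 0.60 and 0.089 by edgeR). Among 54 genes of glutamate receptors and postsynaptic scaffolds, *Grik3* rose and *Dlgap3*, a scaffold protein of the postsynaptic density, fell, and the list median was −0.24 (−0.15 without number 4). At an unadjusted p under 0.05, 20 of the 54 were lower and 3 higher, where 7.14% of all genes tested were lower and 8.78% higher (15.9% in all). DESeq2 with the block called 8 lower and 1 higher, and over the 14725 genes to which it gave an adjusted p it called 2.25% lower and 2.74% higher (4.99% in all). *Dlgap3* had 187, 230, 254 and 141 CPM with apoE2 and 144, 182, 204 and 88.8 CPM with apoE3 (log2 fold change −0.42, edgeR adjusted p = 0.038). The postsynaptic genes measured as proteins in the study, *Dlg4* (PSD95) and *Grin1* (NR1), had log2 fold changes of −0.21 and −0.41 and did not pass the test (adjusted p = 0.30 and 0.16 by edgeR), nor did *Syp*, synaptophysin of synaptic vesicles (−0.11, which was 0.056 without number 4).

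Of 36 synaptic vesicle genes 0 rose and 1 fell by edgeR, *Syn2*, a synapsin (log2 fold change −0.50). The list median was −0.16, or −0.04 without number 4. *Slc6a11*, a GABA transporter, had −0.40, the glycine receptor gene *Glra3* had 1.13, and none of the 28 tested genes of GABA and glycine signalling was called by edgeR (median −0.22, or −0.12 without number 4). At an unadjusted p under 0.05, 12 of these 28 were lower and 1 higher (7.14% and 8.78% of all genes), and DESeq2 with the block called 2 lower and 1 higher (2.25% and 2.74%). Of 51 potassium channel genes 0 rose and 2 fell by edgeR, the inward rectifier gene *Kcnj4* (−0.52) and the sodium-activated channel gene *Kcnt1* (−0.66), but the median of this list was −0.08 over all pairs and 0.06 without number 4. Of 36 sodium, calcium and HCN channel genes 0 rose and 2 fell by edgeR, *Cacna1h*, a T-type calcium channel (−0.59), and *Cacnb4*, a calcium channel subunit (−0.37), with a median of −0.17 (−0.07 without number 4). In the vesicle, potassium and sodium, calcium and HCN lists, 7, 11 and 10 genes were lower at an unadjusted p under 0.05, and 2, 4 and 4 higher. DESeq2 with the block called 4, 3 and 2 lower and 0, 0 and 1 higher. *Cacna1h* had 136, 174, 177 and 123 CPM with apoE2 and 104, 122, 121 and 64.3 CPM with apoE3, and the groups did not overlap. These calls rested on the libraries as a whole: *Cacnb4* was lost in 14, *Syn2* in 9, *Dlgap3* and *Kcnt1* in 7, *Kcnj4* in 6 and *Cacna1h* in 4 of the 16 fits without 1 library, and of these 6 genes *Kcnt1* alone passed without number 4 (−0.46, edgeR adjusted p = 0.049). The other 5 were then −0.34 (*Dlgap3*), −0.40 (*Syn2*), −0.36 (*Kcnj4*), −0.48 (*Cacna1h*) and −0.31 (*Cacnb4*).

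The neuron-rich lists moved with neuronal markers. None of the 12 neuron markers and none of the 10 excitatory hippocampal markers was called by edgeR. At an unadjusted p under 0.05, 2 and 5 of them were lower (7.14% of all genes were), and DESeq2 with the block called 0 and 2 lower (2.25% of all genes). The medians were −0.11 and −0.28 (−0.0069 and −0.19 without number 4), with *Neurod2* at −0.58, *Bcl11b* at −0.47, *Map2* at −0.36 and *Snap25* at −0.26. The summed neuron markers with apoE3 were 0.919, 1.04, 0.929 and 0.691 times those with apoE2 in pairs 1 to 4, and the excitatory markers 0.948, 1.02, 0.809 and 0.524 times. The part of this in the lower genes was not tested. In bulk cultures fewer cells of a type and less RNA per cell cannot be told apart.

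**Figure D4:**
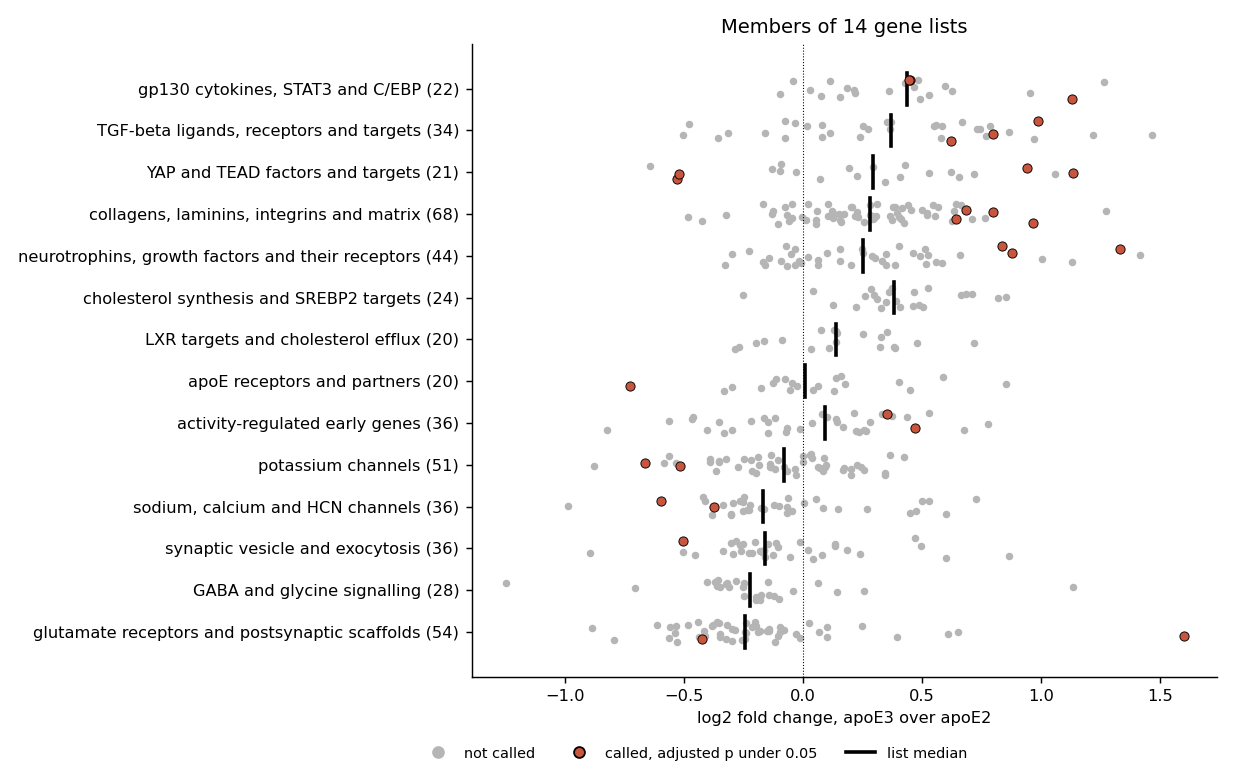
Each point is a tested member of one of 14 gene lists (number tested in brackets), placed by its log2 fold change of apoE3 over apoE2, with called members red and outlined and the list median as a bar. The medians run from 0.44 for the gp130 list to −0.24 for the glutamate receptor list.

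Growth factor and matrix genes gave calls in the other direction. Of 34 genes of TGF-beta ligands, receptors and targets 3 rose by edgeR (8.82%, against 0.716% of all genes tested) and 0 fell. They were *Id2*, *Smad3*, which carries the signal to the nucleus (log2 fold change 0.62, edgeR adjusted p = 0.0083), and *Inhbb*, an activin subunit (0.80). At an unadjusted p under 0.05, 13 of the 34 were higher and 3 lower (8.78% and 7.14% of all genes). DESeq2 with the block called 6 higher and 1 lower (2.74% and 2.25%). *Smad3* had 40.1, 18.4, 34.3 and 37.0 CPM with apoE2 and 59.8, 34.8, 41.6 and 60.4 CPM with apoE3, while the control mean of 52.3 ± 11.8 CPM and the apoE4 mean of 56.4 ± 13.7 CPM (SD, n = 4) were on the apoE3 side. All 3 were still called without number 4, and the list median of 0.37 was then 0.20. Over the 4 fits without a number, *Id2* was called in 3, *Smad3* in 2 and *Inhbb* in 1. In the fit of the 8 libraries *Id2* alone was called. Of 44 genes of neurotrophins, growth factors and their receptors, 3 rose by edgeR (6.82%) and 0 fell, *Ngfr*, the p75 neurotrophin receptor (1.33), *Gfra1*, the GDNF receptor (0.88), and *Fgf1* (0.84). *Ngfr* was called in 11, *Gfra1* in 12 and *Fgf1* in 9 of the 16 fits without 1 library, and without number 4 *Fgf1* was lost and the list median went from 0.25 to 0.11. *Ngfr* and *Gfra1* were each called in 1 of the 4 fits without a number, that without number 4. In the fit of the 8 libraries *Gfra1* alone was called. *Ngfr* had 27.3, 28.4, 27.3 and 96.7 CPM with apoE2 and 124, 60.1, 82.9 and 122 CPM with apoE3, against means of 12.6 ± 10.9 CPM in the control and 15.8 ± 8.87 CPM with apoE4 (SD, n = 4). It was thus above the control and apoE4 means in both groups, and the groups overlapped through apoE2 replicate 4.

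Of 68 genes of collagens, laminins, integrins and matrix, 4 rose by edgeR (5.88%) and 0 fell (median 0.28, or 0.08 without number 4). They were *Col6a1*, a chain of collagen VI, *Spp1*, osteopontin, *Eln*, elastin, and *Thbs2*, a thrombospondin. At an unadjusted p under 0.05, 23 of the 68 were higher and 2 lower (8.78% and 7.14% of all genes). DESeq2 with the block called 10 higher and 1 lower (2.74% and 2.25%). *Col6a1* had 17.2, 9.21, 13.2 and 35.0 CPM with apoE2 and 28.2, 22.9, 24.8 and 66.1 CPM with apoE3 (log2 fold change 0.97, edgeR adjusted p = 8.9e-04), and was the only one of the 4 called without number 4. *Spp1* varied far more between cultures than between isoforms, with 270, 41.4, 35.3 and 334 CPM against 418, 52.2, 64.6 and 611 CPM (log2 fold change 0.68, edgeR adjusted p = 0.018). Among 21 genes of YAP and TEAD factors and their targets, 2 rose, *Ptpn14* (1.13) and *Tead2* (0.94), and 2 fell, *Lats2*, the kinase that restrains YAP (−0.53), and *Crim1* (−0.52), together 19.05% of the list against 1.31% of all genes tested. Without number 4 *Ptpn14* was still called at 0.69 and *Lats2* at −0.60, while *Tead2* (0.61, edgeR adjusted p = 0.097) and *Crim1* (−0.47, edgeR adjusted p = 0.052) were not. *Ptpn14*, *Lats2* and *Crim1* were each called in 1 of the 4 fits without a number, and *Tead2* in 0. In the fit of the 8 libraries 0 members of this list were called. The median of this list was 0.29 and 0.0023 without number 4.

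Few members of other lists were called. They were *Txnrd1*, thioredoxin reductase, among 24 NRF2 targets (0.49), *Cyp26b1*, which degrades retinoic acid, among 21 retinoid and vitamin D genes (1.41), *Fzd7* and the lower *Frzb*, a secreted Wnt inhibitor (−0.53), among 45 Wnt genes, *Rgma* (0.89) and the lower ephrin receptor gene *Epha5* (−0.52) among 54 axon guidance genes, and *Cd63* among 42 lysosome and endosome genes (0.70). *Cyp26b1* had 10.2, 4.58, 21.7 and 61.5 CPM with apoE2 and 60.4, 14.5, 52.0 and 88.3 CPM with apoE3, beside a control mean of 8.34 ± 5.56 CPM (SD, n = 4). Of 36 activity-regulated early genes, *Jun* (0.47) and *Klf6* (0.35) rose and 0 fell by edgeR, and *Egr2* had −0.46 without passing the test (adjusted p = 0.65 by edgeR). At an unadjusted p under 0.05, 8 of the 36 were higher and 4 lower (8.78% and 7.14% of all genes). DESeq2 with the block called 5 higher and 1 lower (2.74% and 2.25%). The edgeR calls were 2.38 to 5.56% of the members in each of these lists, against 1.31% of all genes tested. *Klf6* was kept in only 2 of the 16 fits without 1 library, *Epha5* in 3, *Frzb* and *Txnrd1* in 8, *Jun* in 11, *Rgma* in 12, *Cyp26b1* in 13 and *Cd63* in 15. Genes called higher outside the lists, named after their values were seen, include *Ier5l* (0.91), *Flot1*, flotillin of lipid rafts (0.60), *Tspan17* (0.82) and *Ccnd1*, cyclin D1 (0.92), and among those lower was *Aff3* (−0.64).

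Glial markers lay higher with apoE3 in the same libraries without passing the test one by one. None of the 11 astrocyte, 13 oligodendrocyte lineage, 14 microglia and macrophage or 10 mural cell and fibroblast markers was called by edgeR. At an unadjusted p under 0.05, 8, 6, 2 and 5 of them were higher (8.78% of all genes tested were), and DESeq2 with the block called 2, 3, 0 and 2 higher (2.74% of all genes). In addition, all 11 astrocyte and all 13 oligodendrocyte lineage markers had a log2 fold change above 0, with medians of 0.41 and 0.43. Without number 4 these medians were 0.20 and 0.23, and those of the microglia and mural lists went from 0.41 to 0.10 and from 0.55 to 0.15. *Gfap*, the filament of astrocytes, had 1206, 329, 1070 and 1381 CPM with apoE2 and 2118, 354, 1411 and 3449 CPM with apoE3 (log2 fold change 0.66, edgeR adjusted p = 0.096). *Aldh1l1* had 0.79 (adjusted p = 0.061 by edgeR). Of 9 neural progenitor markers, *Vim*, vimentin (0.76), and *Hopx* (0.68) rose (22.2%, against 0.716% of all genes tested), and both are also expressed by astrocytes. *Vim* was called in 6 and *Hopx* in 12 of the 16 fits without 1 library, and neither in any of the 4 fits without a number (0.56 and 0.46 without number 4, edgeR adjusted p = 0.090 and 0.10).

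The summed astrocyte markers with apoE3 were 1.39, 1.29, 1.14 and 2.21 times those with apoE2 in pairs 1 to 4. The ratios were 1.05, 1.18, 1.14 and 2.41 for the oligodendrocyte lineage, 1.28, 1.18, 1.11 and 2.75 for mural cells and fibroblasts, and 0.943, 0.812, 1.21 and 1.75 for microglia and macrophages. The rise was thus largest in pair 4 in each of these lists. The lists of cytokine, TGF-beta, growth factor and matrix genes moved with these markers, and the part of the markers in them was not tested.

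**Figure D5:**
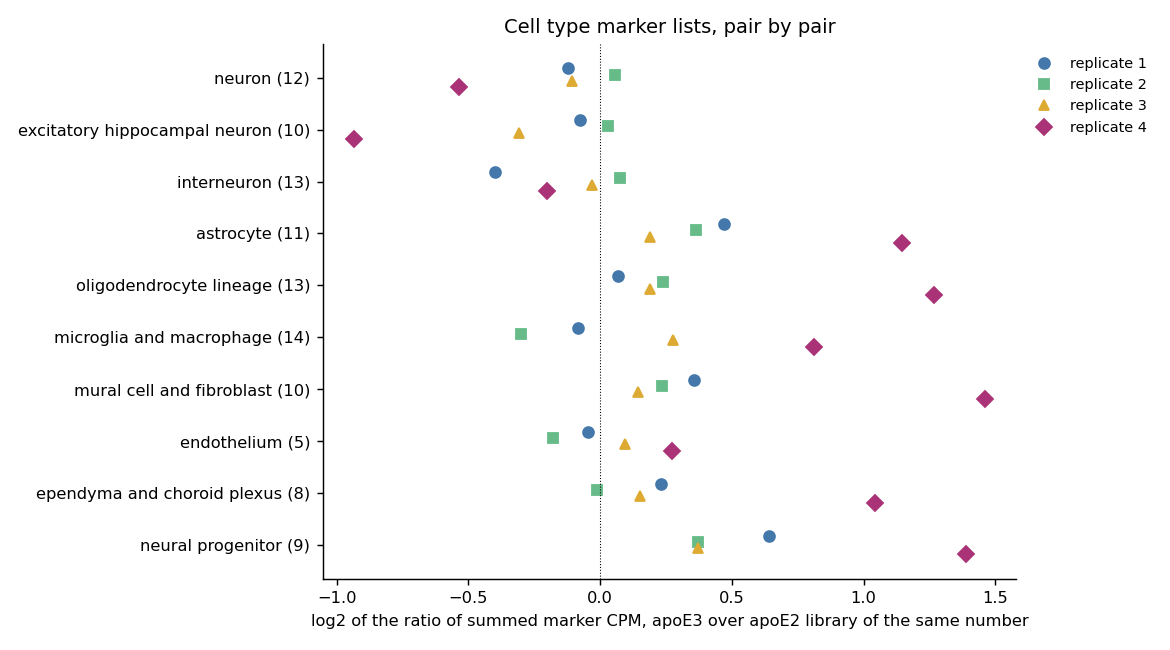
For each cell type marker list (number of markers tested in brackets), the log2 of the ratio of summed CPM, apoE3 over apoE2, is shown for each of the 4 pairs. Pair 4 (diamonds) lies farthest from 0 in the neuron, excitatory neuron, astrocyte, oligodendrocyte, mural and progenitor lists.

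Genes of cholesterol synthesis and export gave no call between the isoforms. Cells answer a fall in sterols through SREBP2, which raises synthesis and uptake, and a surplus through LXR, which raises export. None of the 24 tested genes of cholesterol synthesis and SREBP2 targets was called by edgeR (1.31% of all genes tested were), although 23 of them lay above 0 with a median of 0.38 (0.34 without number 4). By edgeR 16 of them, all higher with apoE3, had an unadjusted p under 0.05, against 2713 of the 17038 genes tested, and DESeq2 with the block called 3 higher (2.74% of all genes). The list median was −0.03 in pair 1, 0.29 in pair 2, 0.67 in pair 3 and 0.59 in pair 4, so the difference was not seen in the first pair. *Ebp* had 0.47 (adjusted p = 0.053 by edgeR) and *Hsd17b7* 0.39 (adjusted p = 0.066 by edgeR), both of the late synthesis steps. *Ebp* was higher in 3 of 4 pairs and was called without number 4 (0.63, edgeR adjusted p = 0.0084). *Hmgcs1* had 0.30 and *Sqle* 0.49, and the pairs lay far apart, with *Hmgcs1* at 150 CPM in apoE2 replicate 1 and 1332 CPM in apoE2 replicate 2.

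Of 20 LXR and efflux genes 0 were called by edgeR (1.31% of all genes tested were), with a median of 0.14, or 0.11 without number 4. At an unadjusted p under 0.05, 8 were higher and 2 lower (8.78% and 7.14% of all genes). DESeq2 with the block called 2 higher (2.74% of all genes). *Scd1*, a fatty acid desaturase, had 0.72 (adjusted p = 0.064 by edgeR), higher in 4 of 4 pairs, and was called without number 4 (0.56, edgeR adjusted p = 0.0056). *Abcg1* had −0.20, *Mylip*, a ubiquitin ligase gene, 0.11, and the lysosomal cholesterol exporter gene *Npc1* 0.33. Of 20 apoE receptors and partners, 3 were higher and 3 lower at an unadjusted p under 0.05 (8.78% and 7.14% of all genes). DESeq2 with the block called 2 higher and 1 lower (2.74% and 2.25% of all genes). By edgeR 1 fell (0.599% of all genes tested did), *Lrp1b*, a large endocytic receptor. It had 127, 97.9, 154 and 101 CPM with apoE2 and 87.5, 63.8, 98.5 and 47.6 CPM with apoE3, a log2 fold change of −0.72 (adjusted p = 0.0079 by edgeR), kept in all 16 fits without 1 library but lost without number 3 (adjusted p = 0.066) and without number 4 (adjusted p = 0.051). The reelin and apoE receptor gene *Lrp8* had −0.11. The mouse *Apoe* gene of the cultures had a log2 fold change of 0.14 (95% interval −0.23 to 0.52, edgeR adjusted p = 0.74), with 2 of 4 pairs higher, and −0.069 without number 4.

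The study's own transcription factor list had 24 genes tested, of which *Lhx4* (1.47) and *Tead2* rose (8.33%, against 0.716% of all genes tested) and 0 fell (median 0.49, 0.24 without number 4). None of the 18 tested genes that the study's text names was called by edgeR (median 0.49, 0.22 without number 4). At an unadjusted p under 0.05 there were 7 (15.9% of all genes), and DESeq2 with the block called 1 higher and 1 lower (2.74% and 2.25% of all genes). Because the study chose such lists on these samples, their direction is not independent evidence. *Lhx4* had 1.48, 1.22, 4.71 and 2.65 CPM with apoE2 and 10.2, 4.67, 11.1 and 3.87 CPM with apoE3, beside a control mean of 2.98 ± 1.18 CPM (SD, n = 4). *Ascl2* had a log2 fold change of 0.23 and *Vdr*, the vitamin D receptor, 0.98, at 0.382 to 1.02 CPM with apoE2 and 0.574 to 2.30 CPM with apoE3, and neither passed the test (adjusted p = 0.80 and 0.14 by edgeR). *Hpgd*, which inactivates prostaglandins, had 7.75, 7.72, 12.6 and 14.8 CPM against 16.8, 18.7, 23.0 and 14.96 CPM (0.82, edgeR adjusted p = 0.066), was called without number 4 (1.07, edgeR adjusted p = 0.017) and was above its control mean of 4.15 ± 1.53 CPM (SD, n = 4) with both isoforms. None of the 49 mitosis genes, *Top2a* having 0.75 (edgeR adjusted p = 0.26), and none of the 47 genes of DNA replication was called by edgeR or by DESeq2 with the block, and 7 of each list had an unadjusted p under 0.05 (15.9% of all genes).

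The other groups place these genes. The comparisons share the apoE3 or apoE2 libraries with the calls, so the values are given as levels only. The genes called higher had a median log2 fold change over the control of 0.06 with apoE2, 0.44 with apoE4 and 0.89 with apoE3, and the genes called lower had 0.26, −0.20 and −0.30. In 67 of the 122 genes called higher the control mean lay below both isoforms, in 51 between them and in 4 above both. In 72 of the 102 genes called lower it lay between, in 15 above both and in 15 below both. Over all genes tested it lay between in 26.2%, below both in 39.3% and above both in 34.5%. Genes called were selected for a gap between the apoE2 and apoE3 means, so a control or apoE4 mean falls between them more often for that reason. The apoE4 mean lay between the apoE2 and apoE3 means in 90 of the 122 and in 66 of the 102, as it did in 32.9% of all genes tested. *Calb1* and *Ptpn14* are among those where it did not, with apoE4 means of 76.9 ± 24.2 CPM, below the apoE3 mean of 90.2 ± 42.3 CPM, and 70.1 ± 35.2 CPM, above the apoE3 mean of 27.0 ± 19.5 CPM (SD, n = 4).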

How the data were processed

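RNA was sequenced after ribosomal depletion (Ribo-Zero Gold, TruSeq, NovaSeq). The authors aligned reads to mm10 (GRCm38) with STAR and deposited raw counts per gene symbol from HTSeq, 1 table per library; the annotation and strand setting are not given in the sources used here. The study describes 4 independent cultures per condition. Rows that name no gene were left out (38.4 to 73.7% of reads in the 8 libraries). Genes were filtered by filterByExpr and tested with TMM scaling by edgeR 4.0.16 (quasi-likelihood, R 4.3.3) in 1 fit of all 16 libraries with the replicate number as a block. The contrast was apoE3 minus apoE2, in which control and apoE4 libraries serve only for the spread and the replicate effects. P-values were Benjamini-Hochberg adjusted over 17038 genes.

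The study's labels share numbers 1 to 4 across groups. Deviations from the group means correlated between apoE3 and apoE2 libraries of the same number (r = 0.55, 0.83, 0.67 and 0.68 in pairs 1 to 4, across genes). With apoE2 libraries of another number, r reached 0.36, 0.25, 0.34 and 0.57 for apoE3 replicates 1 to 4. Each apoE3 library was thus most like the apoE2 library of its own number, by the least in number 4. Subtracting group means by itself pulls the correlations between different numbers down. The common dispersion was 0.018 with the block and 0.13 without it. P-values measure the spread that is left within replicate numbers after the block has taken out differences between numbers. CPM are TMM-scaled, positions are from GENCODE M21, and promoters from RefSeq. The script was tested on simulated data. Named genes were the 12 per direction with the smallest p among genes called, changed at least 2-fold and of 1 sign in 4 of 4 pairs (predicted genes and pseudogenes aside), up to 4 called members per list or otherwise up to 2 with the smallest p, and 10 fixed genes. *Hpca*, *Lif*, *Osmr*, *Cebpb*, *Cebpd*, *Lrp8*, *Abcg1*, *Mylip*, *Hmgcs1* and *Sqle* were named outside this rule after values were seen, as were the genes marked so above. Members and lists were chosen with earlier results of these data known. Alternatives were DESeq2 1.42.0 with and without the block, DESeq2 size factors, other filters, only the 8 libraries, GC and length offsets, leaving out features over 1% of a library, the off-gene share as a covariate and leaving out each library or number.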

Additional observations from a re-analysis of the deposited data

Results flagged for a closer look

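Among 232 groups of 4 values looked at, 7 had 1 library far from the other 3, where chance gives about 1 in 20. In *Sbno2* apoE3 replicate 2 was low at 54.6 CPM against 99.3 to 100 CPM in the others, and in *Syt10* apoE2 replicate 3 was low at 5.51 CPM against 9.30 to 9.84 CPM. In *Ier5l* apoE2 replicate 2 was low at 7.34 CPM against 15.3 to 16.7 CPM, and in *Neurod2* apoE2 replicate 2 was high at 125 CPM against 59.4 to 65.96 CPM. Libraries of number 4 stood high in 3 genes. *Col6a1* had 66.1 CPM with apoE3 replicate 4 against 22.9 to 28.2 CPM, *Klf6* 107 CPM with apoE3 replicate 4 against 68.0 to 70.8 CPM, and *Ngfr* 96.7 CPM with apoE2 replicate 4 against 27.3 to 28.4 CPM.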

How the results depend on the processing

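Every one of the 224 genes kept its sign in each alternative in which it was tested. They were selected on these libraries and had the same sign in 4 of 4 pairs, so this adds no evidence. The number called moved widely. With the replicate block removed, 0 genes were higher and 0 lower (smallest edgeR adjusted p = 0.930), and 71 and 46 met the 2-fold criterion. With only the 8 libraries compared, 15 and 5 were called (128 and 76 by the criterion), and without the block in that fit 0 and 0 (60 and 34; smallest edgeR adjusted p = 0.940, 337 genes at an unadjusted p under 0.05). DESeq2 called 404 and 331 with the block and 5 and 4 without it (86 and 56 by the criterion). No low-count filter gave 723 and 519 (265 and 275), and a minimum of 1 CPM in 8 libraries gave 130 and 115, with 66 and 33 by the criterion. Calls for higher genes lay between 11 and 151 and for lower genes between 4 and 140 when 1 library or 1 number was left out, and by the criterion between 124 and 240 and between 100 and 217. With DESeq2 size factors, offsets for GC content and length, the off-gene share as a covariate or the 4 features over 1% of a library removed, the calls were within 1.5 times of 122 and 102, from 108 to 143 and from 75 to 133. Named genes that were not called changed sign only when libraries were left out, and over those fits *Apoe* ranged from −0.069 (without number 4; −0.053 without apoE2 replicate 4) to 0.34, *Ascl2* from −0.27 (without apoE3 replicate 3; −0.18 without number 3) to 0.59, and *Syp* from −0.21 to 0.056 (without number 4; 0.0023 without apoE3 replicate 4). The causes were not tested. With 9 residual degrees of freedom and at most 4 pairs, genes with small or uneven differences cannot be resolved, and low genes such as *Zbtb42*, *Sostdc1* and *Ascl2* rest on few reads.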

Other observations

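Over all genes tested, edgeR called 1.31%, 15.9% had an unadjusted p under 0.05, and DESeq2 with the block called 4.99%. These shares stand beside all counts of this section. Large groups of housekeeping genes gave 0 calls by edgeR. The median log2 fold change was 0.11 for 81 cytosolic ribosomal protein genes, 0.02 for 84 nuclear genes of oxidative phosphorylation and 0.14 for 10 mitochondrially encoded genes, and 4, 4 and 0 of them had an unadjusted p under 0.05, with 0, 1 and 0 called by DESeq2 with the block. Without number 4 the medians were 0.07, −0.01 and −0.06, so the last 2 changed sign. Of 19 heat shock genes, 26 genes of the integrated stress response, 28 of hypoxia and glycolysis and 22 p53 targets, edgeR called 0, with medians of −0.04, 0.05, −0.03 and 0.24, which were −0.0038, 0.0088, −0.10 and 0.003 without number 4. At an unadjusted p under 0.05 there were 6, 3, 8 and 5 (15.9% of all genes), and DESeq2 with the block called 2, 0, 2 and 1 (4.99% of all genes). The 65 replication-dependent histone genes tested gave 0 calls by edgeR and 2 by DESeq2 with the block, a median of 0.20 (0.18 without number 4) and 14 genes at an unadjusted p under 0.05, all higher with apoE3. Of 30 interferon response and antigen presentation genes edgeR called 0 and DESeq2 1, with 1 at an unadjusted p under 0.05, and their median was 0.18 over all pairs and −0.15 without number 4.

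The 27 neuropeptide genes and 31 synapse organiser and glypican genes tested also gave 0 calls by edgeR, with medians of −0.12 and −0.01 (−0.05 and −0.02 without number 4), 7 of each at an unadjusted p under 0.05, and 2 and 1 called by DESeq2 with the block. Of 20 contractile actin and smooth muscle genes edgeR called 1 higher (0.716% of all genes tested were), with a median of 0.30, or 0.07 without number 4. At an unadjusted p under 0.05, 8 were higher and 1 lower (8.78% and 7.14% of all genes). DESeq2 with the block called 4 higher (2.74% of all genes). Of 25 lipase and prostaglandin genes edgeR called 0 and DESeq2 with the block 3, with 5 at an unadjusted p under 0.05 and a median of 0.18 (0.08 without number 4).

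Of the marker lists not described above, 13 interneuron markers, 5 endothelial markers and 8 markers of ependyma and choroid plexus, edgeR called 0. At an unadjusted p under 0.05 there were 2, 0 and 4, and DESeq2 with the block called 1, 0 and 0.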
